A study of Homo sapiens with 8 samples.

Results

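MLLT3, the gene of AF9, and 8 of its partners in transcription elongation were followed over 8 arrays of a metastatic breast cancer cell line. The members were MLLT3, its paralog MLLT1, the scaffold genes AFF1 and AFF4, the elongation factor genes ELL and ELL2, the histone methyltransferase gene DOT1L, and CDK9 and CCNT1, which encode the kinase P-TEFb. They were found by gene symbol, and 10 of the 29141 tested features of the array named one of these 9 genes, with 2 features for ELL2 and 1 for each of the others. The set was built around MLLT3, which was selected on its measured values on these same arrays, where it differed with the knockdown and with the knockdown plus IL-13. Its differences are therefore given as a description with no test. The partners were chosen by their known role, although with earlier results of these data known, and were tested.

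The profiled cells were MIV-Luc, the MCF10CA1a line carrying a luciferase gene. One line expressed a scrambled hairpin (shSCR) and the other a hairpin against IL13Rα2, the decoy receptor of the cytokine IL-13 (shIL13Rα2#2), and each was given a mock treatment or IL-13 at 20 ng/ml, over 16 h. Below, the 2 lines are called shSCR cells and knockdown cells, which gives 4 groups with and without IL-13. Each group had 2 biological replicates, named array A and B here. All carried a lentiviral hairpin and luciferase, the transduced cells were pooled after puromycin selection, and 1 hairpin against IL13Rα2 was profiled, so that loss of IL13Rα2 and any other property of that line cannot be told apart. Values are log2 expression as deposited, and a difference of 1 is a 2-fold change.

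RNA polymerase II pauses soon after it starts a gene, and P-TEFb releases it by phosphorylating the polymerase and the factors that hold it. The super elongation complex brings P-TEFb to genes: AFF1 and AFF4 form its scaffold, ELL and ELL2 speed the polymerase, and MLLT3 or MLLT1 reads acetylated histones through a YEATS domain. The end of MLLT3 that binds AFF1 or AFF4 can instead bind DOT1L, which methylates the core of histone H3 along transcribed genes. MLLT3, MLLT1, AFF1, AFF4 and ELL are all known as fusion partners of MLL in acute leukemia.

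The sequences before the starts of MLLT3 and MLLT1 are shown because these paralogs encode readers of the same kind, and their knockdown values lay apart. They are the 250 bases before the RefSeq start in GRCh38.p14, on the minus strand at chr9:20622500-20622749 for MLLT3 and at chr19:6279976-6280225 for MLLT1, with CpG dinucleotides in capitals.
MLLT3: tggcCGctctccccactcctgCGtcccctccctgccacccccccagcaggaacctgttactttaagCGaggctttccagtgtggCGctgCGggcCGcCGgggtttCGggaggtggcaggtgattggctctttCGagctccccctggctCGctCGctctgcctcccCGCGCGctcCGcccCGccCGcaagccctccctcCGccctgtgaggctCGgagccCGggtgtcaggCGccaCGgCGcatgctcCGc
MLLT1: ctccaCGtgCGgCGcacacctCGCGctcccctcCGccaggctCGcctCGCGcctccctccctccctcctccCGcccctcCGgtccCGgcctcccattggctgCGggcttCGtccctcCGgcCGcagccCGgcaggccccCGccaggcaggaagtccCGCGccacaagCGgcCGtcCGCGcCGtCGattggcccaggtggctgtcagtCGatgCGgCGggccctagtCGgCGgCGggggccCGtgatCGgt
The stretch of MLLT3 held 24 CpG dinucleotides and 72.0% G or C, and that of MLLT1 held 34 and 77.2%. RefSeq gave windows from 250 bases before to 50 bases after a start for 7 of the 9 genes, 9 windows in all. TTC and GAA spaced by 4 bases, as preferred by STAT6, the transcription factor downstream of IL-13, were found in none of the 9 on either strand, against 6.44% of the 35116 windows of this length. TTCNNNGAA, with the spacing of other STAT proteins, was found in 1 of the 9, before the second start of AFF1, against 7.66% of all windows. TATAAA, with 11.5% of all windows, and the p53 family half-site, with 6.63%, were found in none of the 9. These counts describe the letters of the windows and say nothing of binding.

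IL13RA2, the target of the hairpin, was lower on the knockdown arrays than on the shSCR arrays of the same treatment. Its log2 expression was 8.07 and 8.09 in mock-treated shSCR cells, 9.36 and 9.33 with IL-13, 6.52 and 6.34 in mock-treated knockdown cells, and 8.23 and 8.15 with IL-13. Knockdown cells with IL-13 were thus not lower in IL13RA2 than mock-treated shSCR cells. Array medians were 5.02 to 5.06, and no 2 arrays held identical values. All 6 features of the epithelial markers CDH1, EPCAM, KRT8 and KRT18 and 5 of 6 of the basal markers KRT5, KRT14, KRT17 and TP63 lay above the array median on every array, whereas ESR1 and PGR lay below it on all 8. Of the 2 markers each for leukocytes, endothelium and fibroblasts, 1 was below the median on every array (PTPRC, CDH5 and PDGFRB) and 1 above it on every array (CD14, PECAM1 and COL1A1). Some markers moved with the groups: TP63 differed by 0.94 with the knockdown and 0.84 with IL-13, PECAM1 by 0.52 and -0.52, and 1 feature of KRT18 by -0.60 and -0.047. Their part in the results was not tested.

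MLLT3 was higher on every shIL13Rα2#2 array than on every shSCR array, with or without IL-13. Its log2 expression was 5.87 and 6.10 in mock-treated shSCR cells, and 5.85 and 5.67 in shSCR cells with IL-13. In knockdown cells it was 7.31 and 7.23 without IL-13, and 7.15 and 7.17 with IL-13. The lowest knockdown array thus stood 1.04 above the highest shSCR array. In RNA of whole cultures, more cells that express MLLT3 and more MLLT3 RNA per cell cannot be told apart.

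From the highest level to the lowest, the groups stood at 7.27 ± 0.055 (SD, n = 2) for the knockdown, 7.16 ± 0.017 (SD, n = 2) for the knockdown with IL-13, 5.99 ± 0.16 (SD, n = 2) for the mock-treated control and 5.76 ± 0.13 (SD, n = 2) for the control with IL-13. The step from the second to the third is wide, whereas the groups that differ in IL-13 alone are close neighbours. In each line both IL-13 arrays lay below both mock-treated arrays, an order that says little with 2 arrays against 2. With IL-13 the 2 knockdown groups differed by -0.11 and the 2 shSCR groups by -0.23. The SD that limma used for MLLT3, which also draws on the spread of all features, was 0.12.

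The knockdown difference of MLLT3 was 1.28 without IL-13 (2.43-fold) and 1.40 among IL-13-treated cells (2.64-fold), and it averaged 1.34 (2.53-fold). Cells with knockdown and IL-13 together stood 1.17 above mock-treated shSCR cells (2.25-fold), a comparison that shares those control arrays with the one without IL-13. These values chose the gene and are given for their size only. The knockdown average ranked 5 from the highest among the 29141 features, and its IL-13 average of -0.17 ranked 26339. Leaving out each array in turn gave a knockdown average of 1.28 to 1.40. The ranks and this range come from the values that chose the gene and are likewise only a description.

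**Figure D1:**
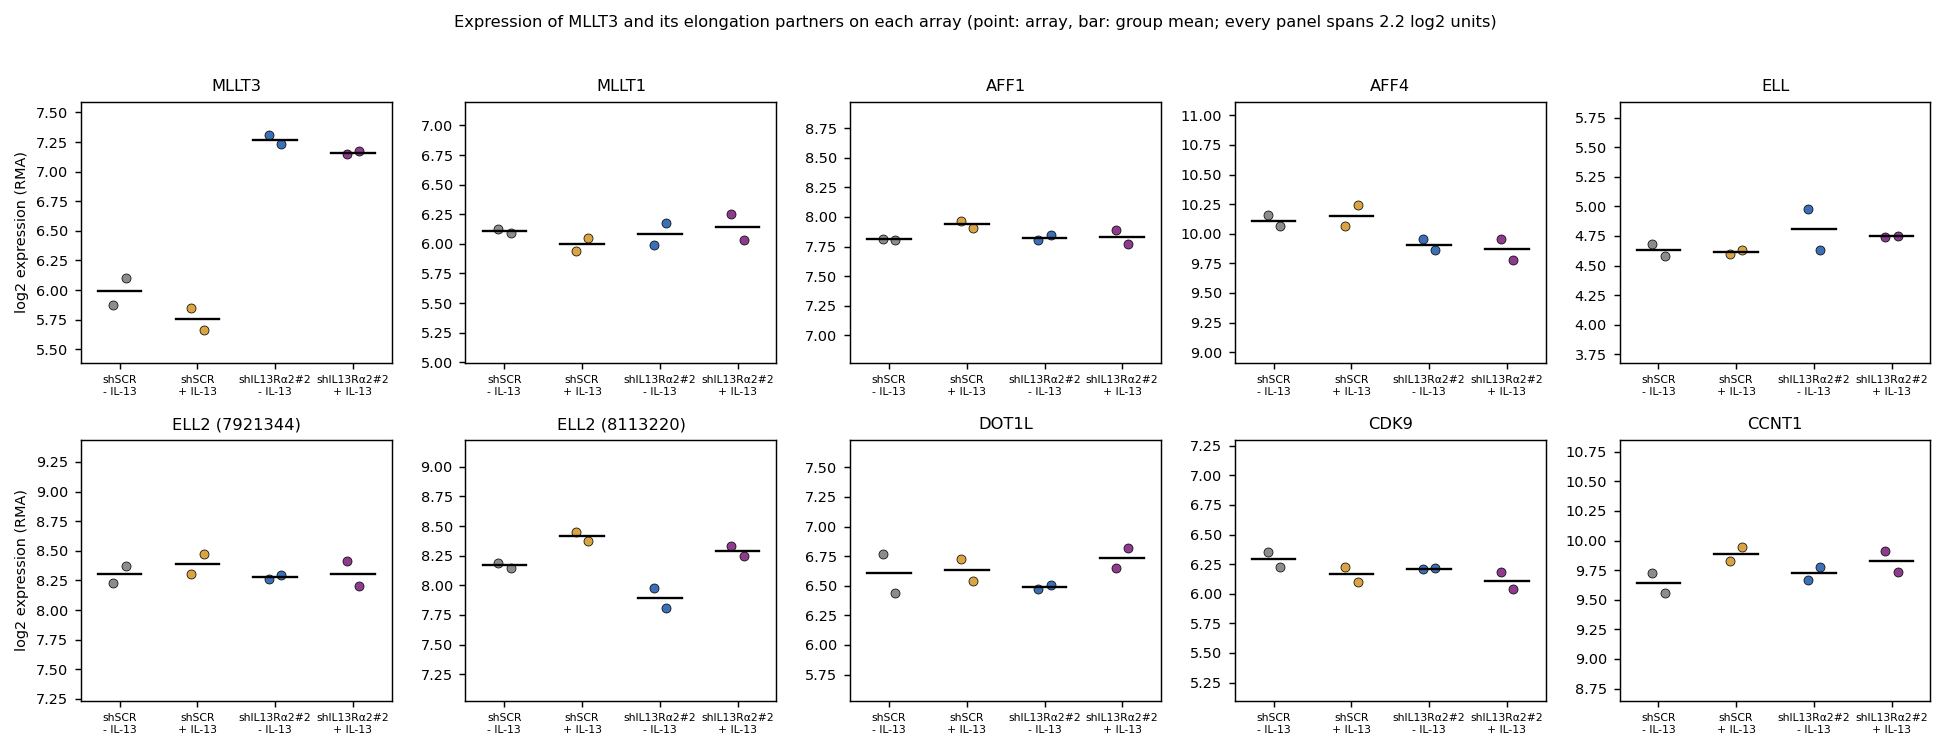
Log2 expression (RMA, vertical axis) of the 10 features on each array, in the 4 groups on the horizontal axis, where each point is 1 array, each bar the mean of the 2 arrays of a group and every panel spans the same 2.2 log2 units. MLLT3 steps from at most 6.10 on the shSCR arrays to at least 7.15 on the shIL13Rα2#2 arrays, whereas the other panels stay within a narrow band.

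MLLT1, which encodes ENL, the other YEATS reader of the complex, did not show this step. It was 6.13 and 6.09 in mock-treated shSCR cells, 5.94 and 6.05 with IL-13, 5.99 and 6.17 in mock-treated knockdown cells, and 6.25 and 6.03 with IL-13. The arrays of the 2 lines overlapped. Its knockdown average was 0.058 (95% confidence interval -0.14 to 0.26, adjusted p = 0.854 from limma over all features), and its IL-13 average was -0.027 (adjusted p = 0.960 from limma).

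AFF4, the scaffold on which the super elongation complex is built, was the partner with the clearest separation between the lines, and the difference was small. It was 10.16 and 10.07 in mock-treated shSCR cells, 10.06 and 10.24 with IL-13, 9.96 and 9.86 in mock-treated knockdown cells, and 9.96 and 9.78 with IL-13. All 4 knockdown arrays lay below all 4 shSCR arrays. The knockdown average was -0.24 (standard error 0.085, 95% confidence interval -0.44 to -0.046, adjusted p = 0.363 from limma). It was therefore not called, although its unadjusted p was under 0.05. Leaving out each array in turn gave -0.29 to -0.20. The IL-13 average of AFF4 was 0.0019 (adjusted p = 0.996 from limma).

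AFF1, the other scaffold gene, was 7.82 and 7.81 in mock-treated shSCR cells, 7.97 and 7.91 with IL-13, 7.80 and 7.85 in mock-treated knockdown cells, and 7.89 and 7.77 with IL-13. The 4 arrays of one line overlapped the 4 of the other, although among IL-13-treated cells both knockdown arrays lay below both shSCR arrays. That difference of -0.11 did not pass the test (adjusted p = 0.889 from limma). The knockdown average of AFF1 was -0.047 (95% confidence interval -0.22 to 0.12, adjusted p = 0.858 from limma) and its IL-13 average 0.067.

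ELL2, an elongation factor that keeps the polymerase moving, was read by 2 features under the same transcript accession, and they differed. Feature 8113220 was 8.19 and 8.15 in mock-treated shSCR cells, 8.45 and 8.38 with IL-13, 7.97 and 7.81 in mock-treated knockdown cells, and 8.34 and 8.25 with IL-13. All 4 IL-13 arrays lay above all 4 mock-treated arrays. The IL-13 average was 0.32 (standard error 0.078, 95% confidence interval 0.14 to 0.50, adjusted p = 0.271 from limma). It was therefore not called, although its unadjusted p was under 0.05. The difference with IL-13 was 0.25 in shSCR cells and 0.40 in knockdown cells, and the interaction of 0.15 did not pass the test (adjusted p = 0.993 from limma). The knockdown average of this feature was -0.20 (adjusted p = 0.396 from limma, unadjusted under 0.05).

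Feature 7921344 of ELL2 was 8.23 and 8.38 in mock-treated shSCR cells, 8.30 and 8.47 with IL-13, 8.26 and 8.30 in mock-treated knockdown cells, and 8.41 and 8.20 with IL-13. Here the IL-13 and mock-treated arrays overlapped. Its IL-13 average was 0.056 (95% confidence interval -0.15 to 0.26, adjusted p = 0.906 from limma) and its knockdown average -0.051 (adjusted p = 0.874 from limma). RefSeq also lists a pseudogene of ELL2, ELL2P1, and the table does not say which copies the probes of each feature read, so the level of ELL2 is uncertain.

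ELL, the founding member of the ELL family, was 4.69 and 4.58 in mock-treated shSCR cells, 4.60 and 4.64 with IL-13, 4.98 and 4.63 in mock-treated knockdown cells, and 4.74 and 4.75 with IL-13. The highest value belonged to 1 array of the mock-treated knockdown cells. ELL lay below the array median on every array. Its knockdown average was 0.15 (95% confidence interval -0.068 to 0.37, adjusted p = 0.609 from limma). Without IL-13 the difference of 0.17 became -0.0023 when array A of knockdown cells without IL-13 was left out and 0.35 when array B was.

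DOT1L, which marks transcribed genes by methylating the core of histone H3, was 6.76 and 6.44 in mock-treated shSCR cells, 6.73 and 6.54 with IL-13, 6.48 and 6.51 in mock-treated knockdown cells, and 6.65 and 6.82 with IL-13. The mock-treated shSCR arrays lay further apart than any of the group means did. The knockdown average was -0.0063 (95% confidence interval -0.24 to 0.23, adjusted p = 0.992 from limma) and the IL-13 average 0.14 (adjusted p = 0.750 from limma). The knockdown difference without IL-13 was 0.051 when array A of shSCR cells without IL-13 was left out and -0.27 when array B was.

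CDK9, the kinase of P-TEFb, was 6.36 and 6.23 in mock-treated shSCR cells, 6.23 and 6.10 with IL-13, 6.21 and 6.22 in mock-treated knockdown cells, and 6.18 and 6.04 with IL-13. Its knockdown average was -0.066 and its IL-13 average -0.11 (adjusted p = 0.807 and 0.733 from limma). CCNT1, which encodes cyclin T1, the regulatory subunit of P-TEFb, was 9.72 and 9.56 in mock-treated shSCR cells, 9.83 and 9.94 with IL-13, 9.67 and 9.78 in mock-treated knockdown cells, and 9.91 and 9.73 with IL-13. Both IL-13 arrays of shSCR cells lay above both mock-treated ones, whereas the knockdown arrays with and without IL-13 overlapped. The interaction of -0.14 did not pass the test (adjusted p = 0.994 from limma). Such an order of 2 arrays against 2 was also seen in single comparisons of MLLT1, AFF1, AFF4, ELL, 1 feature of ELL2, DOT1L and CDK9, that is, of every other partner. The share of all features with such an order was not counted, so nothing is read from it. The knockdown average of CCNT1 was 0.012 and its IL-13 average 0.17 (adjusted p = 0.978 and 0.634 from limma).

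**Figure D2:**
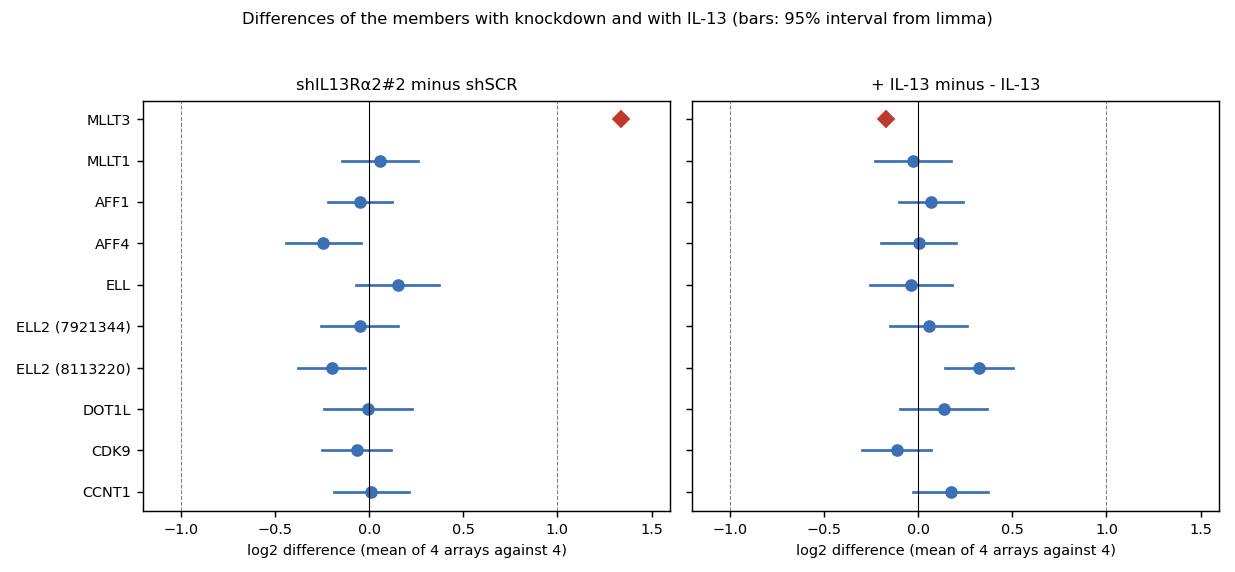
Log2 difference of each feature (horizontal axis) with the knockdown on the left and with IL-13 on the right, averaged over the other factor, where bars are 95% confidence intervals from limma and dashed lines mark 2-fold. MLLT3 (diamond, without an interval because it was chosen on these values) stands at 1.34 with the knockdown, whereas the intervals of the 9 other features end at -0.44 and 0.37 on the left and at -0.30 and 0.50 on the right.

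Counted together, 0 of the 8 partners (9 features) passed limma's adjusted p under 0.05 with a change of more than 2-fold in any of the 6 comparisons below, and 0 passed the adjusted p for the interaction. The one-way analysis of variance that the study's methods name also called 0. In the 6 comparisons the largest partner difference was 0.40, so with the 2-fold threshold the count was 0 whatever the test. With the knockdown averaged over both treatments, 0.0755% of all features were called, 11.3% had an unadjusted p under 0.05 and 7.13% had no overlap between the lines. The partners gave 2 of 9 features at the unadjusted p (AFF4 and 1 feature of ELL2) and 1 of 9 without overlap (AFF4). With IL-13 averaged over both lines, 0.0927% of all features were called, 8.73% had an unadjusted p under 0.05 and 4.78% had no overlap. There the partners gave 1 of 9 by either measure, the same feature of ELL2. Counts of 1 or 2 features do not set the partners apart from all features.

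The single comparisons gave the same picture. Without IL-13 the knockdown called 0.0652% of all features, and 9.51% had an unadjusted p under 0.05, against 1 of 9 partner features (ELL2). Among IL-13-treated cells these shares were 0.0515% and 7.07%, against 1 of 9 (AFF4). For IL-13 in shSCR cells they were 0.0583% and 6.79%, against 0 of 9, and for IL-13 in knockdown cells 0.0618% and 6.93%, against 1 of 9 (ELL2). For the interaction of knockdown and IL-13 the shares were 0% and 4.47%, against 0 of 9.

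The median knockdown average of the 9 partner features was -0.047, beside -0.0060 over all features, with 3 above and 6 below 0. The median IL-13 average was 0.056, beside 0.0084 over all features, with 6 above and 3 below 0. Over all 7 comparisons the widest confidence bound of a partner feature was 0.67, so that a 2-fold change in signal of any of them lay outside its interval. ELL was below the array median on every array, so for it this holds for the signal and not surely for the RNA. Changes of the size seen for AFF4 and ELL2 could not be told from the spread between arrays after adjustment.

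Other genes of the same pathways were taken from 7 lists of 54 genes, all of them measured, by 58 features. Like the partners, the lists were chosen with earlier results of these data known. In the knockdown average and in the IL-13 average, 0 of these genes were called by limma, beside 0.0755% and 0.0927% of all features. At an unadjusted p under 0.05, 4 genes were higher and 4 lower with the knockdown, beside 11.3% of all features. With IL-13, 1 gene was higher and 1 lower, beside 8.73% of all features. These counts do not set the lists as a whole apart from all features. The 4 arrays of one line did not overlap the 4 of the other for CCNT2, CDC73, PBX3 and the elongation factor gene CDK13, all higher with the knockdown. Nor did they for SUPT4H1, NELFCD, EGR1 and FOS, all lower with it. Of all features, 7.13% had no such overlap, and the lists were not tested against this share.

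Among 6 further subunits and paralogs of the super elongation complex the median knockdown difference was 0.0057, with 1 gene at an unadjusted p under 0.05. CCNT2, encoding the alternative cyclin of P-TEFb, differed by 0.27 (adjusted p = 0.298 from limma), and the scaffold paralogs AFF2 and AFF3 each by -0.16. Among 5 genes that hold P-TEFb inactive or recruit it, the median knockdown difference was -0.0082. HEXIM1, an inhibitor of P-TEFb, differed by 0.10 with the knockdown, and its paralog HEXIM2 and the 7SK RNA binder LARP7 by -0.11 and -0.12 with IL-13, with adjusted p of 0.706 or more from limma.

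Among 16 pausing and elongation factors (19 features) the median knockdown difference was -0.075. SUPT4H1, a subunit of DSIF, differed by -0.27 (adjusted p = 0.323 from limma), and NELFCD, a subunit of the pausing factor NELF, by -0.13. NELFE, another subunit of NELF, differed by -0.24 with IL-13 (adjusted p = 0.503 from limma), and its 3 features held identical values and count as 1 measurement. Among the 6 genes of the PAF1 complex, which travels with the polymerase, the median was 0.017, and CDC73 differed by 0.19 (adjusted p = 0.428 from limma). With IL-13, LEO1 and CTR9 of this complex differed by -0.095 and 0.095.

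Among 9 partners of DOT1L, MLL and the YEATS proteins (10 features) the median knockdown difference was 0.067. MLLT10, a cofactor of DOT1L, differed by 0.17, MEN1, encoding the MLL cofactor menin, by -0.16, and MLLT6 by 0.38 in 1 of its 2 features (adjusted p = 0.511 from limma). The replicates of that feature lay apart, with an SD of 0.49 in mock-treated shSCR cells and 0.50 in mock-treated knockdown cells. The other MLLT6 feature overlapped, at 6.41 to 6.64 on the shSCR arrays and 6.36 to 6.52 on the knockdown arrays. Among 6 genes that MLL fusions and DOT1L keep on in leukemia the median was 0.037, with 2 at an unadjusted p under 0.05. PBX3, a homeodomain cofactor of HOX proteins, was 8.60 to 8.77 on the shSCR arrays and 8.93 to 9.13 on the knockdown arrays, without overlap. It differed by 0.33 (adjusted p = 0.231 from limma), and HOXA9 by 0.22 (adjusted p = 0.370 from limma) and HOXA5 by 0.088. HOXA7, HOXA10 and MEIS1 differed by -0.015, -0.021 and -0.063.

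The list that stood lowest with the knockdown was that of 6 immediate early genes controlled by pausing, with a median of -0.19 and all 6 values below 0. EGR1, an early growth response transcription factor, was 7.91 and 7.87 in mock-treated shSCR cells, 7.95 and 7.98 with IL-13, 6.997 and 7.23 in mock-treated knockdown cells, and 7.28 and 7.37 with IL-13. All 4 knockdown arrays lay below all 4 shSCR arrays. With the knockdown EGR1 fell by 0.71 on the log2 scale (standard error 0.082, 95% confidence interval -0.90 to -0.52, adjusted p = 0.0180 from limma). This adjusted p alone was passed by 0.446% of all features and by 0 of the 9 partner features. The change was under 2-fold, so EGR1 was not called, and the adjusted p was no longer under 0.05 without any one of the 8 arrays (0.0510 to 0.0965).

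FOS, a subunit of the transcription factor AP-1, was 7.11 and 6.79 in mock-treated shSCR cells, 6.59 and 6.55 with IL-13, 5.90 and 6.25 in mock-treated knockdown cells, and 6.12 and 6.13 with IL-13. Its lines did not overlap either. The knockdown difference was -0.66 (standard error 0.11, adjusted p = 0.0578 from limma). IER2 differed by -0.23 (adjusted p = 0.399 from limma), FOSB by -0.16, JUNB by -0.080 and JUN by -0.062, and for these 4 genes the 4 arrays of one line overlapped the 4 of the other. With IL-13 the median of the 6 early genes was 0.10.

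**Figure D3:**
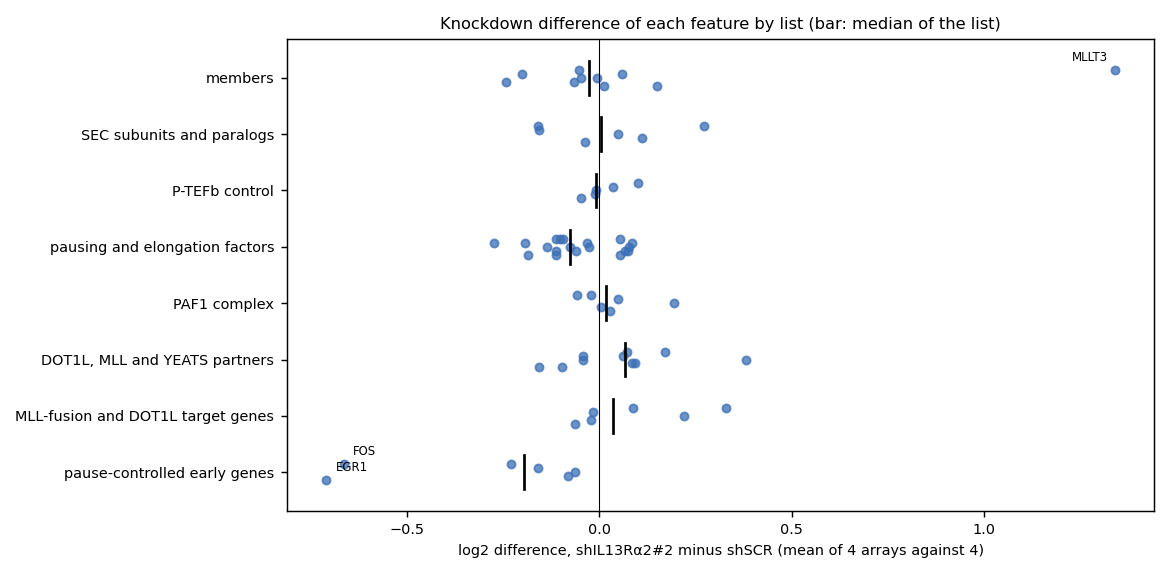
Knockdown difference on the log2 scale (horizontal axis, averaged over both treatments, 4 arrays against 4) of each feature in the 9-gene set and in the 7 lists, where points are features and bars are medians. MLLT3 stands alone at 1.34, EGR1 and FOS at -0.71 and -0.66, and all other features lie between -0.27 and 0.38.

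The measured neighbours of MLLT3 on chromosome 9 did not show its step, although many of them were low in signal. Of the 10 nearest protein-coding genes on each side, 18 of 20 were measured, by 20 features. Their knockdown averages ran from -0.32 to 0.16 with a median of -0.027, 0 were called by limma and 1 feature had an unadjusted p under 0.05. SLC24A2, encoding a cation exchanger, and FOCAD, encoding focadhesin, lie directly beside MLLT3 and differed by 0.043 and -0.19. The IL-13 averages ran from -0.28 to 0.31, with 0 called and 2 at an unadjusted p under 0.05. Several of these neighbours are interferon alpha genes, which are close copies of each other, so their single values are uncertain. SLC24A2 (2.97 to 3.37) lay below the array median on every array. So did every measured gene on the side of higher coordinates except FOCAD (7.01 to 7.43). At such low signal a change in RNA may not show.

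**Figure D4:**
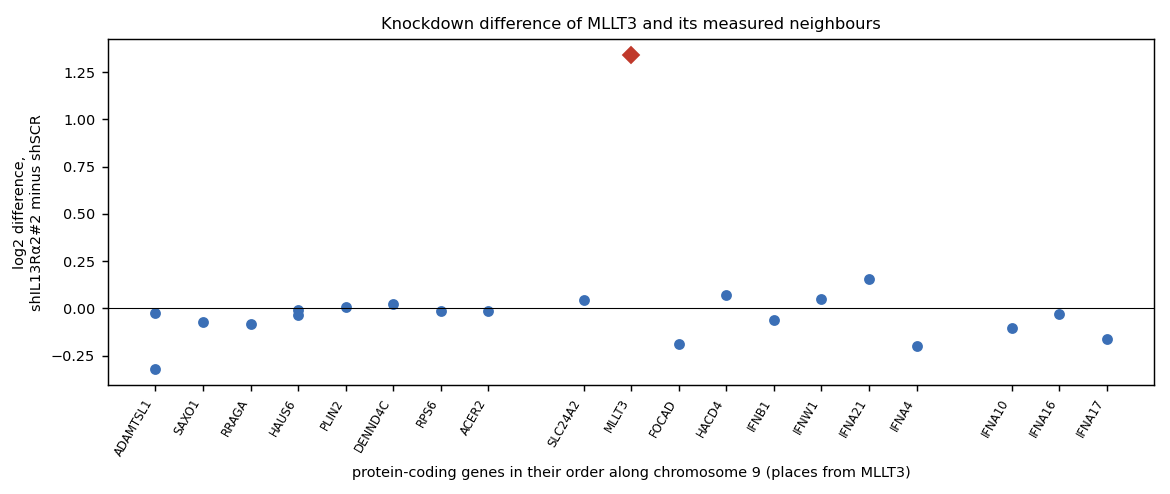
Knockdown difference on the log2 scale (vertical axis, averaged over both treatments) of MLLT3 (diamond) and of its measured protein-coding neighbours (circles, 1 per feature) in their order along chromosome 9. MLLT3 stands at 1.34 and the 20 neighbouring features lie between -0.32 and 0.16.

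The 5 genes whose pattern over the 8 arrays was most like that of MLLT3 were found by the root mean square difference of their values after each gene's own mean was taken off. They were CDH19, a cadherin (0.147), ZNF711, a zinc finger protein (0.155), PLCB1, a phospholipase C (0.201), TMPRSS15, the protease enteropeptidase (0.214), and BICC1, an RNA-binding protein (0.267). Since they were chosen for this likeness, their values are a description. CDH19 was 6.92 to 7.05 on the shSCR arrays and 8.11 to 8.26 on the knockdown arrays. All 4 knockdown arrays lay more than 1 log2 unit above all 4 shSCR arrays for 3 of the 29141 features, those of TMPRSS15, CDH19 and MLLT3, and lay that far below for 0 features. MLLT3 was chosen on these arrays, so its place among the 3 is a description too. At more than 0.5 log2 units, 16 features were separated upwards and 18 downwards.

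**Figure D5:**
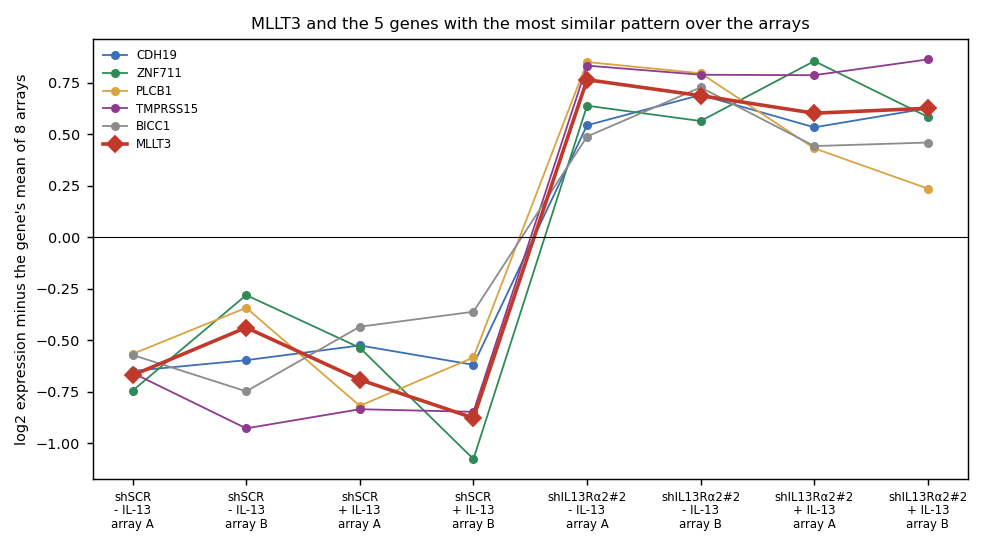
Log2 expression minus each gene's mean of 8 arrays (vertical axis) for MLLT3 (thick line, diamonds) and the 5 genes most like it (thin lines), over the 8 arrays by group on the horizontal axis. The 6 genes are below 0 on the 4 shSCR arrays and above 0 on the 4 shIL13Rα2#2 arrays, a shape for which the 5 were chosen.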

How the data were processed

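Expression was measured on Affymetrix GeneChip arrays in 4 groups of 2. The authors deposited 1 log2 value per gene-level feature and array. They come from RMA as run in Affymetrix Expression Console: background correction, a joint quantile normalization and 1 summary value for the probes of a gene. A value joins the transcripts of a gene, and 2 arrays a group limit the precision. The table held 33297 features. After removal of 4156 controls and spike-ins, 29141 were tested, with no filter on dim signal.

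The 8 arrays were fitted as 4 group means in limma (3.58.1, R 4.3.3) with 4 residual and 3.86 prior degrees of freedom, and p-values were adjusted by the Benjamini-Hochberg method over all tested features. A feature was called at an adjusted p under 0.05 and more than 2-fold, for the interaction at the adjusted p alone. An exact permutation test of 2 arrays against 2 cannot go below p = 0.333 and was not used. The fit was tested on simulated data.

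The members, gene lists and tests were chosen with earlier results of these data known. Named were all members, up to 3 genes per list with the smallest unadjusted p in either averaged comparison, the 5 genes most like MLLT3, its neighbours in the RefSeq table of GRCh38.p14, and IL13RA2; other list members named were chosen after their values were seen. Columns were assigned to groups by their headings. Alternatives were another normalization, prior, filter, fold threshold or test, the fit on the compared arrays alone, and leaving out each array in turn.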

Additional observations from a re-analysis of the deposited data

How the results depend on the processing

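The count of called partners of MLLT3 was 0 in all 7 comparisons, and 122 of 127 alternative counts were 0 as well, among them those of every comparison with each array left out in turn. The other 5 were those without p adjustment and without a fold threshold. They gave 2 features with the knockdown averaged over both treatments. They gave 1 each with IL-13 averaged over both lines, with the knockdown without IL-13, the knockdown in the presence of IL-13, and IL-13 in knockdown cells. Apart from the interaction, no partner differed by more than 0.49 with an array left out. Counts of 0 under a fold threshold were therefore set by that threshold and do not show how far the tests hold. Of 840 alternative values of the members, 828 moved by less than the spread between arrays and 12 by more, all of them for ELL or DOT1L with 1 array left out, of knockdown or of shSCR cells without IL-13, respectively. FOS, with an adjusted p of 0.0578 from limma, had 0.00642 under a robust prior with an intensity trend, and 0.0310 without the dimmest 30% of features, over a range up to 0.214 with an array left out. PBX3, with 0.231, had 0.0281 with that prior and up to 0.477 with an array left out. The cause was not tested. Another scaling moved the median of all features by at most 0.014. No paired analysis was possible because the column headings number the arrays from first to last and do not carry the numbers of the sample labels.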
